A study of Mus musculus with 8 samples.

Results

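The 33 genes described here encode proteins of the presynaptic terminal: scaffolds of the active zone, the machinery that fuses synaptic vesicles with the plasma membrane, proteins of the vesicle itself and proteins that retrieve vesicle membrane. They were taken by symbol from a list that was chosen with earlier results of these data known. All 33 were found among the 15359 genes of the deposited count table. They also passed the filter on low counts that left 15074 genes for testing. Messenger RNA was sequenced from the ventral mesencephalic area of 4 Ercc1 delta/+ mouse samples and 4 wild type samples. Both groups were of mixed FVB:C57BL/6J background on a regular diet. Ercc1 delta/+ mice carry a mutant delta allele beside a normal allele of Ercc1, which encodes a subunit of the endonuclease of nucleotide excision repair, in all cells rather than in a chosen cell type. The labels give no age or sex. Whether every sample came from its own animal is not stated either, and the p-values below therefore describe sample-to-sample spread, part of which may be technical.

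At an active zone, the long scaffold proteins bassoon and piccolo, with RIM and ELKS proteins, hold calcium channels and docked vesicles close together. Munc13 proteins prime docked vesicles by opening syntaxin for the SNARE complex, which zippers VAMP on the vesicle to syntaxin and SNAP-25 on the plasma membrane. Synaptotagmin then couples calcium entry to fusion, and the ATPase NSF takes spent SNARE complexes apart. In the ventral midbrain these proteins serve dopaminergic neurons as well as GABAergic and glutamatergic cells and the terminals of incoming axons, but the mRNA of those terminals is held mostly in cell bodies elsewhere.

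Levels are given in CPM, normalised counts scaled to a fixed library total. Ercc1 itself had 10.2, 12.9, 11.1 and 11.9 CPM in Ercc1 delta/+ replicates 1 to 4, against 14.0, 15.3, 14.9 and 13.8 CPM in wild type replicates 1 to 4. The mutant libraries were all lower, with a log2 fold change of -0.34 (SE 0.10) that missed the threshold in the edgeR quasi-likelihood test (adjusted p = 0.113). The edgeR exact test missed it too (adjusted p = 0.108), and DESeq2 called it (adjusted p = 0.0397). Libraries held between 18303913 and 31261889 counts over the genes used, and the lowest count of any presynaptic gene in any library was 610. The dopaminergic marker Th, which encodes tyrosine hydroxylase, was found in every library, with a mean ± SD over 4 libraries of 50.1 ± 14.4 CPM in Ercc1 delta/+ and 54.3 ± 9.48 CPM in wild type. Of 12 lists of cell type markers, with 86 genes tested, all 12 had summed CPM that overlapped between the groups. The forebrain neuron list stood apart in median log2 fold change (1.29, 8 of 9 positive), as did the choroid plexus list (1.76, 7 of 7 positive). Those of the other 10 lists lay between -0.35 and 0.21.

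The promoters of 29 of the 33 genes were available from RefSeq, as windows of 250 bases before to 50 bases after the annotated start on GRCm38.p6. The windows of the 4 genes whose libraries separated by genotype are shown, with Syn1 as a vesicle gene whose libraries did not. Capitals mark exact matches on either strand to TGACGTCA (the cAMP response element, its own reverse complement), TTCAGCACC (the left part of RE1, the element of the neuronal gene repressor REST), the right part of RE1, the palindromic NRF1 element, GGGCGG (the GC box) and TATAAA. The marked matches do not overlap each other.
Bsn promoter (GRCm38.p6 chr9:108190334-108190633, minus strand): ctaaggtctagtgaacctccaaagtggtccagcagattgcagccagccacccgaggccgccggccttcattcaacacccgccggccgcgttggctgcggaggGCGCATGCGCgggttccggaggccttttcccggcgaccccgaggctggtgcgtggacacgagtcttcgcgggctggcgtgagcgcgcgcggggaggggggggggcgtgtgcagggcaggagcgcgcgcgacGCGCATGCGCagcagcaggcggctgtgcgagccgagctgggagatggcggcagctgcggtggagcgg
Unc13a promoter (GRCm38.p6 chr8:71671708-71672007, minus strand): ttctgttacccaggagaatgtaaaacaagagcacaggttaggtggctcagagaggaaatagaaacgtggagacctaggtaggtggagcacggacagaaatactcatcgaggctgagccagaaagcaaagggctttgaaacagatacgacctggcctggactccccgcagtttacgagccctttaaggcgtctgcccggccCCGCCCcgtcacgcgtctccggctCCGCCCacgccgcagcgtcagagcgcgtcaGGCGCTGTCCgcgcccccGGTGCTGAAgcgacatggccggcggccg
Unc13b promoter (GRCm38.p6 chr4:43058703-43059002, plus strand): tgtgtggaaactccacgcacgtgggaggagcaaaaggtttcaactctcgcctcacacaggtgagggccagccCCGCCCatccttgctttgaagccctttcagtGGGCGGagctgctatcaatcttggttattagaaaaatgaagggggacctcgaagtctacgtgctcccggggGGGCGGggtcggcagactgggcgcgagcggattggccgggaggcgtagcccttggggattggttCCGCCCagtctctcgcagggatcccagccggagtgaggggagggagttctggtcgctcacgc
Sv2c promoter (GRCm38.p6 chr13:96132528-96132827, minus strand): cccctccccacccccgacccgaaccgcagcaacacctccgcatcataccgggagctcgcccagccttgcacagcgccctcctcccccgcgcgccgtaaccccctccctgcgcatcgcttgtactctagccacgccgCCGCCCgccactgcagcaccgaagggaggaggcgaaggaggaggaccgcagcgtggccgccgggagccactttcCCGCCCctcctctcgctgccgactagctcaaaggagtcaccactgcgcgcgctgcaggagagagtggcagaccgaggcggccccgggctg
Syn1 promoter (GRCm38.p6 chrX:20920869-20921168, minus strand): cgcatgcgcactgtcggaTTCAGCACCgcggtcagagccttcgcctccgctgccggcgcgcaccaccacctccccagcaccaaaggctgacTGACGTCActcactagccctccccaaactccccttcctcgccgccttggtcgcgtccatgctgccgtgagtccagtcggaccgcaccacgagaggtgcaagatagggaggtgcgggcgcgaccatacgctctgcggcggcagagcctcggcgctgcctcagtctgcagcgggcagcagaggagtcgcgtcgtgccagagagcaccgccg
Bsn carried the NRF1 element at 2 places, which 1.07% of 27025 genes with a window carried at least once. Unc13a carried both parts of RE1 on the opposite strand, downstream of its start, where 0.433% of genes carried the left part and 0.167% the right part. Syn1 carried the left part too, with a cAMP response element, which 2.03% of genes carried. The GC box was found in 22 of the 29 genes (75.9%) against 38.2% of the 27025 genes, and TATAAA in 1 of 29, that of Sv2b, against 15.7%. Taking for each gene its window with the most CpG dinucleotides, the 29 genes held a median of 22, against 8 for the 27025 genes. Those 27025 genes include many that were not tested here, and no comparison with the tested genes alone was made. A match describes the letters and does not show that a factor binds there.

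Of the 33 genes, 32 had a positive log2 fold change of Ercc1 delta/+ over wild type, with a median of 0.12, while 49.5% of all genes tested were positive and their median was -0.0028. Since the list was chosen with earlier results known, the shares below describe these genes and test nothing. In the highest decile of all genes by mean CPM, 62.4% were positive with a median of 0.05, and 8.22% did not overlap in the higher direction. That decile held 24 of the 33 genes, of which 23 were positive, with a median of 0.08. None of the 33 passed an adjusted p of 0.05 in the edgeR quasi-likelihood test over all genes, where 0.0464% of genes passed and 0.0133% passed in the higher direction, and the adjusted p-values ran from 0.0866 (Sv2c) to 0.965 (Snap25). At an unadjusted p under 0.05 there were 6 of the 33 (18.2%), all positive. That share is near the 18.7% of all genes in both directions, and 9.08% of all genes met it in the higher direction. In 4 genes (12.1%) every Ercc1 delta/+ library lay above every wild type library, as in 5.17% of all genes. In the lower direction it was 0 of 33, against 6.88% of all genes. Other tools called some of the genes: DESeq2 called 4 of 33, Bsn, Unc13a, Unc13b and Sv2c, where it called 6.98% of all genes and 3.38% in the higher direction. The edgeR exact test called Bsn, Unc13b and Sv2c, where it called 3.69% of all genes and 1.6% in the higher direction, and limma-voom called 0. The authors' deposited table gave an adjusted p under 0.05 to 2 of the rows used here, Bsn (log2 fold change 0.56, adjusted p = 0.0171) and Sv2c (0.46, adjusted p = 0.0323), and it called 1.86% of its rows, 1.02% in the higher direction.

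**Figure D1:**
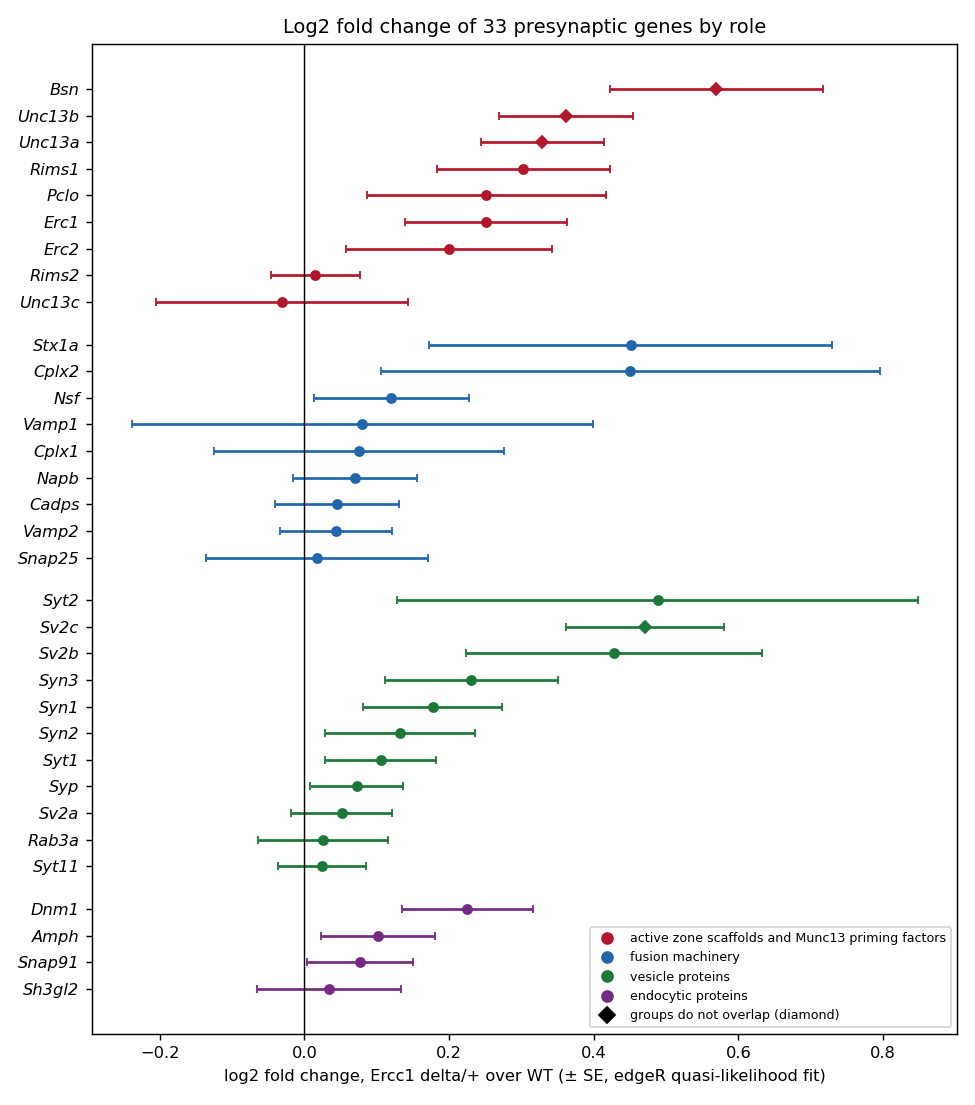
Log2 fold change of Ercc1 delta/+ over wild type for each of the 33 genes, with its standard error as a horizontal bar, grouped and coloured by role. Diamonds mark the 4 genes whose libraries did not overlap between groups, and Unc13c alone has its point left of 0.

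Active zone scaffolds and the Munc13 priming factors had the highest median of the 4 roles. Of 9 genes, 8 were positive, with a median log2 fold change of 0.25. In 3 of them (33.3%) the groups did not overlap, as in 5.17% of all genes in the higher direction. The 9 transcripts are long, with a median of 6633 bases. Of all genes in the highest length decile, 80.5% were positive and 16.3% did not overlap in the higher direction. With the length and GC offset described below, the median of the 9 genes was 0.10. Bsn encodes bassoon, a very large scaffold of the active zone. It had 549.8, 430.0, 350.6 and 366.7 CPM in Ercc1 delta/+ replicates 1 to 4, against 307.4, 321.8, 256.1 and 258.5 CPM in wild type replicates 1 to 4. All 4 mutant libraries lay above the highest wild type library, replicate 1 by the widest margin. The log2 fold change of 0.57 (SE 0.15), or 1.48-fold, missed the threshold (edgeR adjusted p = 0.0963). It ran from 0.42 to 0.65 when each library was left out in turn.

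Unc13a and Unc13b encode Munc13-1 and Munc13-2, which make docked vesicles competent for fusion. Unc13a had 375.8, 290.7, 336.4 and 315.9 CPM in Ercc1 delta/+ replicates 1 to 4, against 275.3, 257.7, 268.4 and 248.4 CPM in wild type replicates 1 to 4. Every mutant library exceeded every wild type library, with replicate 2 closest to them. Its log2 fold change was 0.33 (SE 0.08, edgeR adjusted p = 0.0951), and without Ercc1 delta/+ replicate 2 it was 0.39 and passed (adjusted p = 0.0499), in a fit that called 2.04% of all genes. Unc13b had 42.0, 36.8, 37.3 and 38.7 CPM in Ercc1 delta/+ against 27.7, 30.2, 27.5 and 35.1 CPM in wild type. The groups did not overlap, although wild type replicate 4 came near the lowest mutant library. Its log2 fold change was 0.36 (SE 0.09, edgeR adjusted p = 0.0939).

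Unc13c, which encodes Munc13-3, a paralog best known from cerebellar granule cells, was the only gene of the 33 with a negative value. It had 162.2, 173.1, 164.3 and 158.8 CPM in Ercc1 delta/+ replicates 1 to 4, against 143.5, 220.3, 193.0 and 116.2 CPM in wild type replicates 1 to 4. The mutant libraries lay close together inside a wide wild type range, and the log2 fold change was -0.03 (SE 0.17, edgeR adjusted p = 0.946). Its sign turned with limma-voom, with the replicate block and without wild type replicate 2 or 3, and the authors' deposited table gives it 0.02.

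Rims1 and Rims2 encode the RIM proteins that bind Rab3 and Munc13 at release sites. Rims1 had 108.6, 91.2, 76.6 and 82.0 CPM in Ercc1 delta/+ replicates 1 to 4, against 71.9, 84.6, 66.7 and 67.3 CPM in wild type replicates 1 to 4. Mutant replicates 3 and 4 lay below wild type replicate 2, so the groups overlapped, and the log2 fold change was 0.30 (SE 0.12, edgeR adjusted p = 0.221). Rims2 stood at 73.8 ± 3.95 CPM in Ercc1 delta/+ and 73.0 ± 3.07 CPM in wild type (mean ± SD, n = 4 each); its log2 fold change was 0.02 (SE 0.06). The ELKS genes Erc1 and Erc2, which encode coiled-coil partners of RIM and bassoon, had 0.25 (SE 0.11) and 0.20 (SE 0.14). Pclo, which encodes the bassoon relative piccolo, had 0.25 (SE 0.16), with 213.8 ± 25.8 CPM in Ercc1 delta/+ and 179.5 ± 43.7 CPM in wild type (mean ± SD, n = 4 each). The mutant values of Pclo, Erc1 and Erc2 overlapped with those of wild type.

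The fusion machinery had 9 of 9 genes positive, with a median log2 fold change of 0.08, 0 had groups that did not overlap, and the lowest adjusted p by the edgeR quasi-likelihood test was 0.415. Snap25, which encodes a plasma membrane SNARE, had 1984, 2643, 1735 and 1872 CPM in Ercc1 delta/+ replicates 1 to 4, against 2154, 2198, 2222 and 1562 CPM in wild type replicates 1 to 4. Mutant replicate 2 was the highest library and wild type replicate 4 the lowest, and the log2 fold change of 0.02 (SE 0.15) was far smaller than that spread. Stx1a, which encodes syntaxin 1A, had 145.7, 99.8, 64.0 and 79.1 CPM in Ercc1 delta/+ against 60.03, 105.3, 52.7 and 66.4 CPM in wild type. Mutant replicate 1 and wild type replicate 2 were the highest of their groups, and the log2 fold change was 0.45 (SE 0.28, edgeR adjusted p = 0.415).

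Vamp2, the main vesicle SNARE of the brain, averaged 966.5 ± 79.1 CPM in Ercc1 delta/+ and 937.6 ± 52.5 CPM in wild type (mean ± SD, n = 4 each); its log2 fold change was 0.04 (SE 0.08). Nsf, the SNARE-dissociating ATPase, had 0.12 (SE 0.11), and Napb, which encodes its adaptor beta-SNAP, had 0.07 (SE 0.09). Cadps, which encodes the dense-core vesicle priming factor CAPS-1, had 0.05 (SE 0.09). For these 4 genes the difference was of the order of 1 standard error, and the groups overlapped. Vamp1 encodes the second vesicle SNARE, and Cplx1 and Cplx2 the complexins, which clamp and promote fusion. Their log2 fold changes were 0.08 (SE 0.32) for Vamp1, 0.08 (SE 0.20) for Cplx1 and 0.45 (SE 0.34) for Cplx2, all with wide standard errors and overlapping groups.

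Among the vesicle proteins, all 11 genes were positive with a median log2 fold change of 0.13. Sv2c alone (9.09% of the role) had groups that did not overlap, as in 5.17% of all genes in the higher direction. Sv2c encodes the SV2 glycoprotein found mainly in basal ganglia and midbrain dopaminergic neurons. It had 61.1, 60.2, 46.9 and 54.4 CPM in Ercc1 delta/+ replicates 1 to 4, against 36.2, 42.0, 46.1 and 36.4 CPM in wild type replicates 1 to 4. Mutant replicate 3 exceeded wild type replicate 3 by under 1 CPM, and the other 3 mutant libraries stood clear of all wild type libraries. Its log2 fold change of 0.47 (SE 0.11), or 1.39-fold, had the smallest adjusted p of the 33 genes, 0.0866 (edgeR quasi-likelihood), and ran from 0.42 to 0.54 when each library was left out.

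The other SV2 genes differed in size. Sv2a, the widely expressed member and the binding site of the antiepileptic levetiracetam, had a log2 fold change of 0.05 (SE 0.07). Sv2b had 0.43 (SE 0.20, edgeR adjusted p = 0.298), with 298.5, 307.8, 164.9 and 206.4 CPM in Ercc1 delta/+ replicates 1 to 4 against 177.0, 229.0, 159.4 and 161.1 CPM in wild type replicates 1 to 4. Mutant replicates 1 and 2 held the high values of Sv2b, and the groups overlapped.

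Synaptotagmins 1 and 2 are the fast calcium sensors of release, while synaptotagmin 11 does not bind calcium. Syt2 had 57.5, 166.6, 61.2 and 68.4 CPM in Ercc1 delta/+ replicates 1 to 4, against 62.3, 59.0, 88.8 and 41.6 CPM in wild type replicates 1 to 4. Replicate 2 alone carried the higher mutant mean, since the other 3 mutant libraries lay within the wild type range. The log2 fold change of Syt2 was 0.49 (SE 0.36, edgeR adjusted p = 0.501), and it was -0.01 without Ercc1 delta/+ replicate 2. Syt11 was the steadiest: it had 1090, 1076, 1066 and 1074 CPM in Ercc1 delta/+ against 1076, 1077, 1102 and 979 CPM in wild type, a log2 fold change of 0.02 (SE 0.06). Syt1 had 0.11 (SE 0.08).

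The synapsins, which tether vesicles to the reserve pool, showed log2 differences of 0.18 (SE 0.10) for Syn1, 0.13 (SE 0.10) for Syn2 and 0.23 (SE 0.12) for Syn3. Syp encodes synaptophysin, an abundant vesicle membrane protein, and had 0.07 (SE 0.06). Rab3a, which encodes a vesicle GTPase that binds RIM, had 0.03 (SE 0.09). The groups overlapped for all 5 genes, and their adjusted p-values by the edgeR quasi-likelihood test were at least 0.331.

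Of the 4 endocytic genes, all were positive with a median log2 fold change of 0.09. Dnm1, which encodes the GTPase that cuts vesicles from the membrane, had 1301, 1553, 1225 and 1286 CPM in Ercc1 delta/+ replicates 1 to 4, against 1209, 1092, 1229 and 1060 CPM in wild type replicates 1 to 4. Mutant replicate 3 lay just below wild type replicate 3 and the other 3 mutant libraries above all of wild type. Its log2 fold change was 0.23 (SE 0.09, edgeR adjusted p = 0.228). Sh3gl2, which encodes endophilin A1, had 269.5, 319.2, 247.1 and 264.5 CPM in Ercc1 delta/+ against 296.3, 258.7, 283.3 and 236.2 CPM in wild type, and a log2 fold change of 0.03 (SE 0.10). Its groups overlapped almost entirely. Amph, which encodes the membrane-bending protein amphiphysin, had 0.10 (SE 0.08), and Snap91, which encodes the clathrin adaptor AP180, had 0.08 (SE 0.07).

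**Figure D2:**
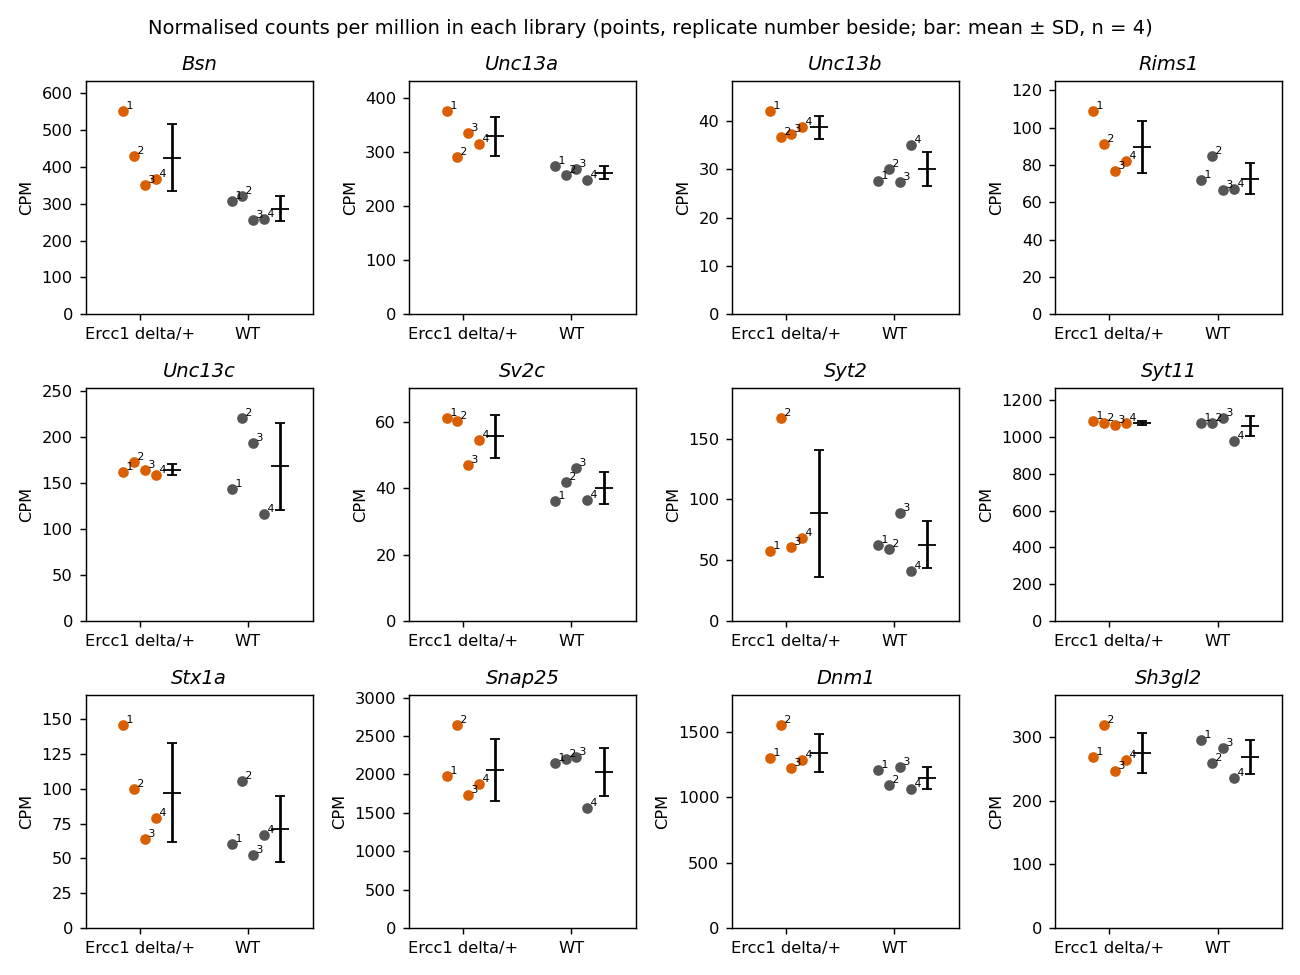
CPM of 12 of the genes in each library, with the replicate number beside each point and the mean ± SD (n = 4) at the right of each group; each vertical axis starts at 0. Bsn, Unc13a, Unc13b and Sv2c show no overlap between Ercc1 delta/+ and wild type, Syt2 has a single high mutant library (166.6 CPM), and Syt11 is nearly level.

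Levels were compared between genes only per kilobase of transcript. On that scale Snap25 was highest, at 972.9 ± 190.2 CPM per kilobase in Ercc1 delta/+ and 961.4 ± 149.3 in wild type (SD, n = 4 each). Syp followed, at 511.6 ± 20.4 in Ercc1 delta/+ and 486.6 ± 25.2 in wild type, and Cplx1, Vamp2 and Rab3a came next. Neighbours in this order from Syp to Vamp2 did not differ beyond their spread. The 4 genes whose groups separated stood low: Unc13a ranked 22, Bsn 26, Unc13b 32 and Sv2c 33 of 33, with Sv2c at 6.12 ± 0.717 CPM per kilobase in Ercc1 delta/+ and 4.41 ± 0.527 in wild type.

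Paralogs that take the same position in the machinery divided the libraries in different ways. The share of Vamp1 in Vamp1 plus Vamp2, per kilobase, was 15.0%, 37.0%, 21.4% and 20.9% in Ercc1 delta/+ replicates 1 to 4, against 25.2%, 20.6%, 29.3% and 18.3% in wild type replicates 1 to 4. The share of Syt2 in Syt2 plus Syt1 was 6.89%, 20.1%, 8.25% and 8.99% in Ercc1 delta/+, against 8.39%, 8.14%, 11.6% and 6.58% in wild type. Mutant replicate 2 was the highest and wild type replicate 3 the next in both pairs; Vamp1 and Syt2 are the isoforms that prevail in brainstem and spinal cord. The share of Cplx2 in Cplx2 plus Cplx1 was 37.6%, 26.1%, 21.4% and 26.7% in Ercc1 delta/+, against 16.9%, 33.9%, 18.8% and 21.6% in wild type. Here mutant replicate 1 and wild type replicate 2 were highest. The share of Sv2c in Sv2c plus Sv2a was 3.17% ± 0.482 in Ercc1 delta/+ and 2.39% ± 0.297 in wild type (SD, n = 4 each), and the groups overlapped, as they did in all 9 pairs compared. No share was tested.

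**Figure D3:**
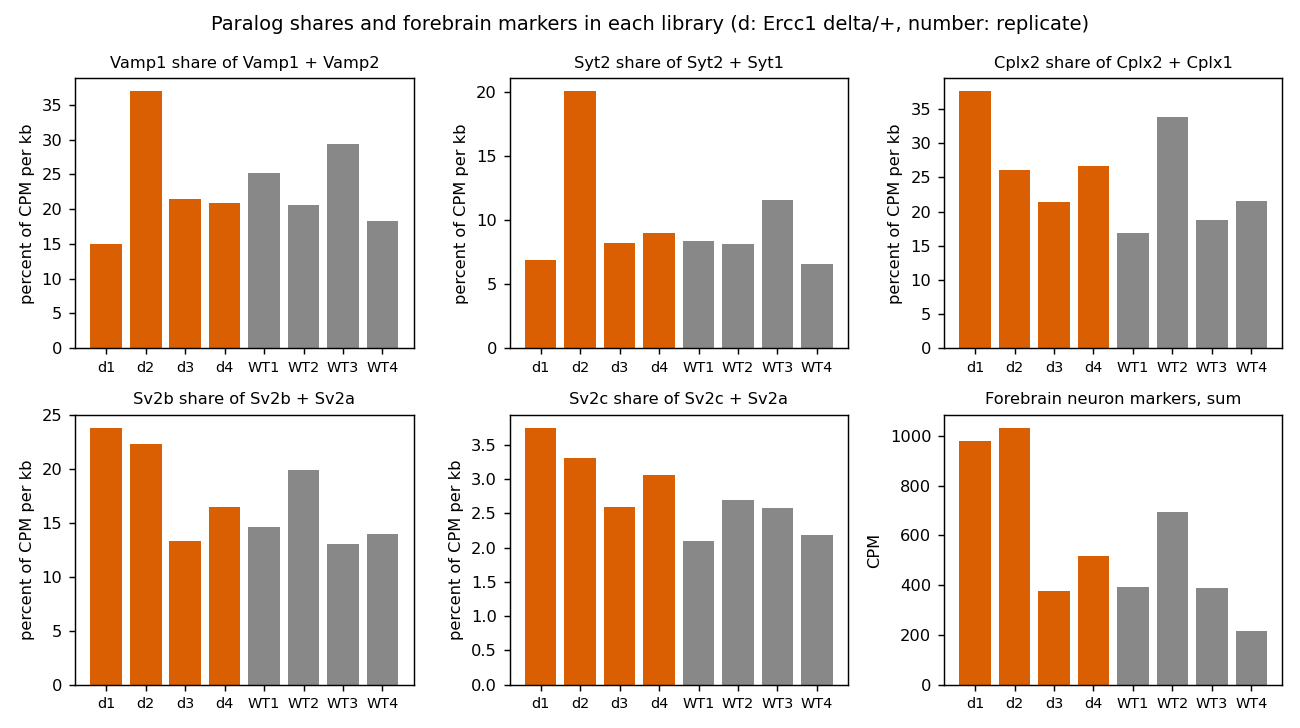
Share of a paralog in its pair, in percent of CPM per kilobase, and summed CPM of 9 forebrain neuron markers, as a bar for each library (d, Ercc1 delta/+; WT, wild type; the number is the replicate). Vamp1 and Syt2 peak in Ercc1 delta/+ replicate 2, Cplx2 in Ercc1 delta/+ replicate 1 and wild type replicate 2, and the forebrain markers in Ercc1 delta/+ replicates 1 and 2.

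Extreme values gathered in few libraries. Of the 33 genes, 16 had their highest normalised value in Ercc1 delta/+ replicate 2 and 13 in replicate 1, while 19 had their lowest in wild type replicate 4. The mean deviation of the 33 genes from their mean over 8 libraries was 0.16, 0.24, -0.06 and 0.03 (log2) in Ercc1 delta/+ replicates 1 to 4, against -0.07, -0.02, -0.05 and -0.24 in wild type replicates 1 to 4, so mutant replicate 3 lay below wild type replicates 2 and 3. For the active zone genes alone it was 0.32, 0.07, 0.05 and 0.07 in Ercc1 delta/+ against -0.12, -0.04, -0.16 and -0.18 in wild type, with no overlap. For the fusion machinery it was 0.12, 0.35, -0.16 and -0.01 in Ercc1 delta/+ against -0.06, 0.12, 0.02 and -0.38 in wild type, and the groups overlapped. These deviations carry no length correction, and the active zone transcripts are longer (median 6633 bases, against 3011 for the fusion machinery). Of all genes in the highest length decile, 80.5% had a positive log2 fold change. No such mean was taken for other long genes. Without Ercc1 delta/+ replicate 2, 25 of the 33 genes were positive and the median log2 fold change was 0.07; without wild type replicate 4 these were 25 and 0.09.

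**Figure D4:**
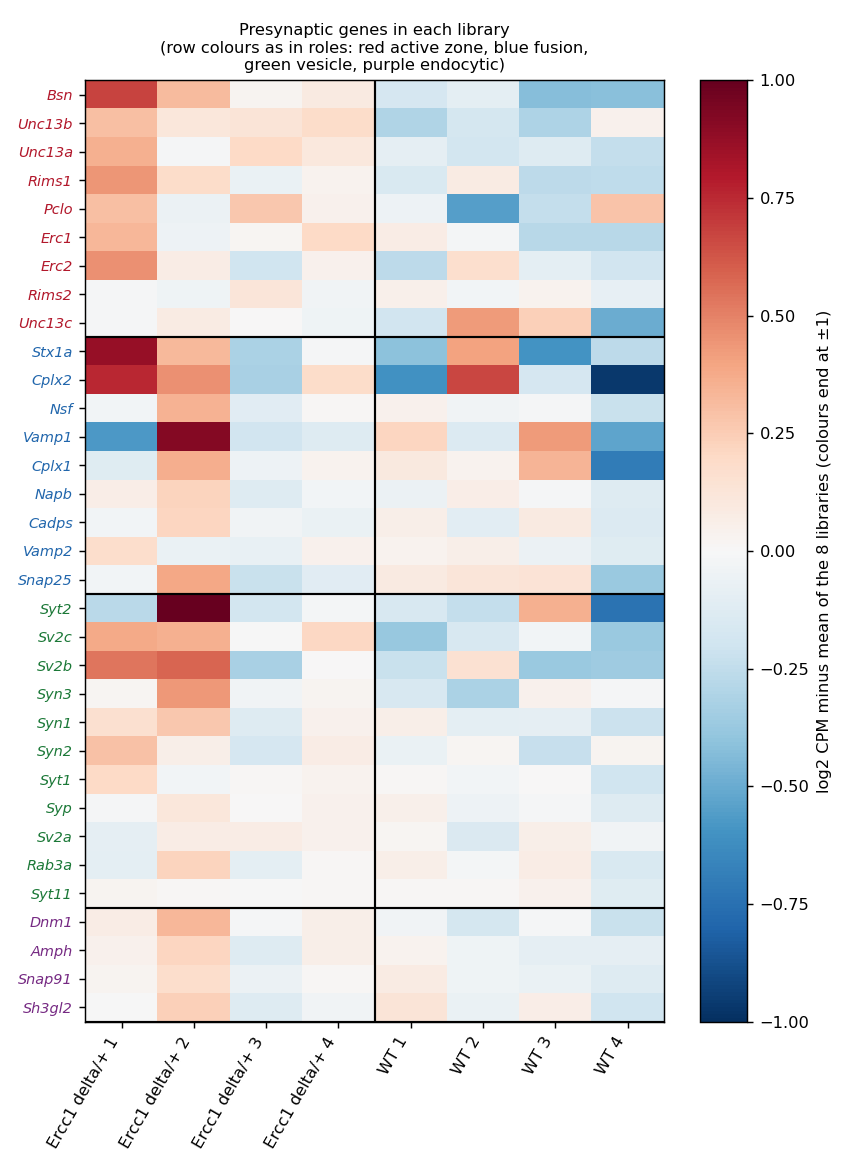
Log2 CPM of each of the 33 genes in each library minus its mean over the 8 libraries, with rows grouped by role and colours ending at 1 and -1. Ercc1 delta/+ replicates 1 and 2 hold most of the strong red cells and wild type replicate 4 most of the blue ones; the active zone rows are red mainly in replicate 1, and Vamp1, Syt2 and Snap25 in replicate 2.

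Forebrain neuron markers also differed between libraries. The summed CPM of the 9 markers was 978.1, 1031, 376.6 and 517.6 in Ercc1 delta/+ replicates 1 to 4, against 394.4, 692.7, 388.7 and 216.8 in wild type replicates 1 to 4. On average in each group, most of that sum came from Slc17a7, the vesicular glutamate transporter of cortical neurons, with 467 ± 226 CPM in Ercc1 delta/+ and 239 ± 146 CPM in wild type (mean ± SD, n = 4 each). In wild type replicate 4, the lowest library, Slc17a7 was 90.0 CPM of the sum. None of the 9 markers was at 0 on average. The general neuron markers summed to between 4065 and 4886 CPM in Ercc1 delta/+ and between 3798 and 4454 CPM in wild type. Other lists varied between libraries too. Striatal neuron markers summed to 937.6, 177.7, 383.7 and 517.9 CPM in Ercc1 delta/+ replicates 1 to 4. In wild type replicates 1 to 4 they summed to 201.8, 1095, 374.6 and 190.7 CPM. Thalamic neuron markers summed to 329.9, 301.3, 673.5 and 568.1 CPM in Ercc1 delta/+, against 859.8, 441.4, 665.5 and 459.1 CPM in wild type. Astrocyte markers were highest in Ercc1 delta/+ replicate 1 (4622 CPM) and wild type replicate 2 (4409 CPM). In bulk tissue, more cells of a type and more RNA per cell cannot be told apart. The choroid plexus markers summed to 357.1, 473.2, 1129 and 74.4 CPM in Ercc1 delta/+, against 152.5, 129.3, 120.0 and 60.9 CPM in wild type. They were highest in mutant replicate 3. Whether cell type content accounts for the presynaptic values was not tested.

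With the mean of the forebrain markers as a covariate, an alternative added after seeing the data, 20 of 33 genes were positive, against 50.5% of all genes in the same fit, and the median log2 fold change was 0.02. By role, 8 of 9 active zone genes were positive with a median of 0.19, and 1 of 9 fusion genes was positive with a median of -0.07. The vesicle proteins had 8 of 11 positive, with a median of 0.04, and the endocytic genes 3 of 4, with 0.01. In this fit Bsn had 0.35, Unc13a 0.33, Unc13b 0.40 and Sv2c 0.32, against 0.02 for Sv2b, 0.03 for Stx1a, -0.09 for Cplx2 and -0.05 for Syt2. Pclo, whose groups overlapped, had the highest value, 0.50, while Rims1 had 0.12 and Erc2 0.0009. In edgeR's quasi-likelihood test 0 of the 33 had an adjusted p under 0.05, with 5 at an unadjusted p under 0.05, a threshold that 22.7% of all genes met in that fit. The difference between the roles was not tested, and this fit held no length correction. The active zone transcripts have a median of 6633 bases, against 3011 for the fusion machinery. With the length and GC offset described below and no covariate, the medians were 0.10 for the active zone genes and 0.09 for the fusion machinery.

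Fold changes also followed transcript length. Across all 14711 tested genes with a known length, Spearman's coefficient between transcript length and log2 fold change was 0.395, and across the 33 genes it was 0.387; these are across genes of the same 8 libraries and describe them only. All genes in the lowest length decile had a median log2 fold change of -0.21 with 17.0% positive, and those in the highest, from 6409 bases, had 0.14 with 80.5% positive. The 33 genes are long: their median transcript is 4336 bases, against 3006 for all genes, and that of the 9 active zone genes is 6633 bases, against 3011 for the fusion machinery, 3854 for the vesicle proteins and 3565.5 for the endocytic genes. The 4 genes whose groups did not overlap have transcripts of 15938 (Bsn), 10255 (Unc13a), 9101 (Sv2c) and 5034 bases (Unc13b), and fall in deciles 10, 10, 10 and 9. In those deciles 16.3% and 9.71% of all genes had groups that did not overlap in the higher direction.

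Set against the median of all genes in its own length decile, 29 of the 33 genes lay above it, by a median of 0.11. Bsn lay 0.43 above, Sv2c 0.33, Unc13b 0.29 and Unc13a 0.19. The 4 below were Unc13c (-0.17), Rims2 (-0.04), Cadps (-0.03) and Syt11 (-0.03). Genes of shorter transcripts also stood above: Stx1a (2162 bases) and Syt2 (3386 bases) lay 0.47 above their deciles, while Pclo, the longest at 20084 bases, lay 0.11 above.

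With an offset for the trend of each library over length and GC content, 28 of the 33 genes were positive, against 50.6% of all genes, and the median log2 fold change was 0.09. The median of the active zone genes was then 0.10, close to 0.09 for the fusion machinery, 0.10 for the vesicle proteins and 0.06 for the endocytic genes. Bsn had 0.21 (edgeR adjusted p = 0.660), Unc13a 0.10 (0.677), Unc13b 0.28 (0.311) and Sv2c 0.33 (0.392), and the unadjusted p was under 0.05 for 2 of the 33 genes, or for 11.1% of all genes. Spearman's coefficient with length was then 0.0768 across all genes and 0.0468 across the 33. The offset was fitted to the length trend of these same data, so the lower coefficient across all genes was built in.

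**Figure D5:**
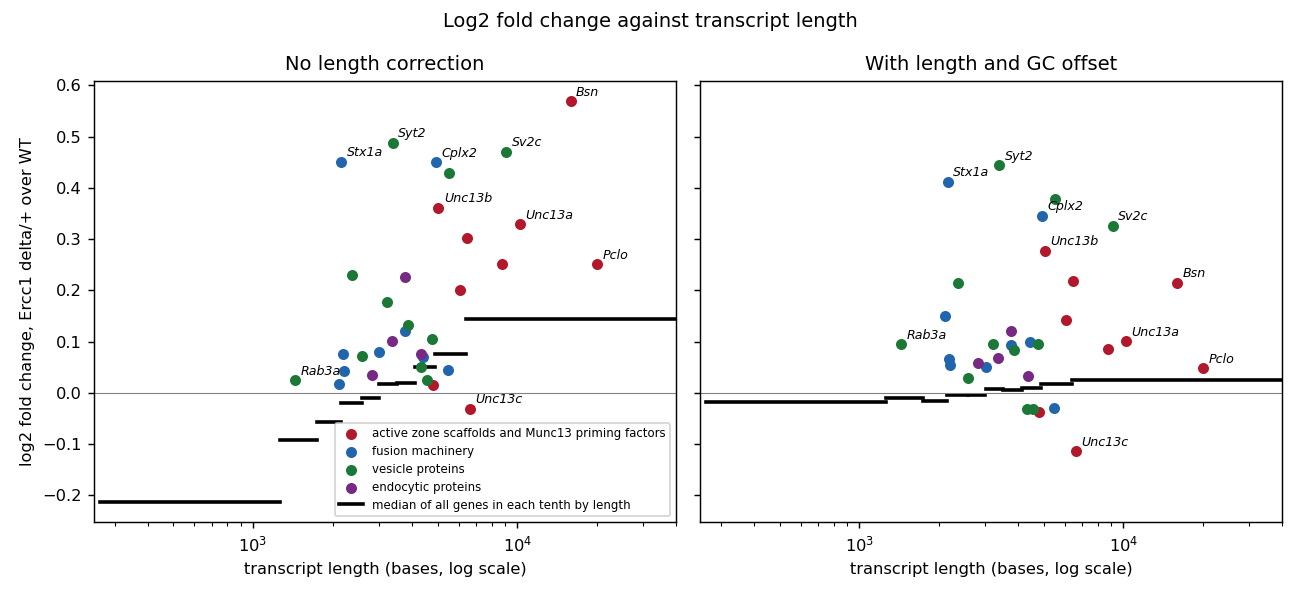
Log2 fold change of the 33 genes (points, coloured by role) against transcript length on a log axis, without a length correction at left and with the length and GC offset at right. Black segments give the median of all genes tested in each length decile, which runs from -0.21 to 0.14 at left. It is nearly flat at right, where the offset was fitted to remove that trend. Bsn moves from 0.57 at left to 0.21 at right.

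More than 1 transcript row was deposited for 11 of the 33 genes, and rows of a gene can share reads. When every transcript was tested as its own row, 11 of the 14 further rows had a log2 fold change within 0.05 of the row used. The exceptions were the second rows of Pclo (0.05 higher), Syn2 (0.06 higher) and Syn3 (0.13 lower), and that of Syn3 held 8.85% of the counts of the row used.

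Of 53 further genes for release, vesicle and endocytic proteins, 38 were positive and 15 negative (median log2 fold change 0.08), and under the length and GC offset 29 were positive (median 0.03). By the edgeR quasi-likelihood test 0 of 53 passed an adjusted p of 0.05, with 5 higher and 2 lower at an unadjusted p under 0.05, where 9.08% of all genes were higher and 9.65% lower, and limma-voom called 0. DESeq2 and the edgeR exact test each called 1 of the 53, Rimbp2, where they called 6.98% and 3.69% of all genes. The groups did not overlap in the higher direction for 3 of the 53, against 5.17% of all genes. In the lower direction it was 1 of 53, against 6.88%. Rimbp2 encodes a RIM-binding protein that links RIM to calcium channels at the active zone. It had 88.7, 79.0, 82.7 and 80.3 CPM in Ercc1 delta/+ replicates 1 to 4, against 61.6, 62.5, 65.6 and 72.0 CPM in wild type replicates 1 to 4. Its groups did not overlap, and its log2 fold change was 0.34 (SE 0.07, edgeR adjusted p = 0.0670). With the length and GC offset Rimbp2 had 0.25 (edgeR adjusted p = 0.253).

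The liprin-alpha genes Ppfia2 and Ppfia3, whose products recruit active zone proteins, stood at 0.25 (SE 0.09) and 0.23 (SE 0.09) in log2 fold change, and Stxbp5l, which encodes the SNARE-binding inhibitor tomosyn-2, had 0.26 (SE 0.10). The liprin-alpha genes Ppfia1 and Ppfia4 had 0.01 (SE 0.08) and 0.02 (SE 0.11). With the length and GC offset Ppfia2 had 0.24, Ppfia3 0.07 and Stxbp5l 0.29. On the negative side, the clathrin light chain gene Clta had 134.8 ± 7.13 CPM in Ercc1 delta/+ and 154.5 ± 9.01 CPM in wild type (mean ± SD, n = 4 each), with no overlap and a log2 fold change of -0.20 (SE 0.07, edgeR adjusted p = 0.169). Clta has a short transcript of 1135 bases, and with the offset its value was -0.06. The synaptotagmin gene Syt9 had -0.53 (SE 0.23), the endophilin gene Sh3gl3 had -0.18 (SE 0.09), and Slc17a6, the vesicular glutamate transporter of thalamic and midbrain neurons, had -0.38 (SE 0.20). The groups overlapped for these 3 genes. The highest values of the 53 were those of Slc17a7 (0.97, SE 0.48), which is also among the forebrain markers above, and of Cplx3, another complexin gene (0.55, SE 0.38), both named after their values were seen, and their groups overlapped.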

How the data were processed

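Poly(A) RNA of RIN above 8 was made into TruSeq libraries with 15 cycles of amplification and sequenced in 1 lane, per the labels' protocols. TopHat 1.3.1, edgeR and the build mm9 are named in the submitters' processing notes; no source used here names the counter or its strand setting, which leaves overlapping and antisense genes uncertain. The authors deposited raw counts for 19931 RefSeq transcripts, with their log2 fold change and p-values per row.

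Of these rows 19456 were matched to symbols by RefSeq (GRCm38.p6) and GENCODE M21 tables, used only for names, lengths, GC content and promoters. The row of highest total stood for each gene, 152 genes were merged with a gene of the same counts, and 15359 remained. Lengths were found for 97.53%. The labels' groups were compared in edgeR 4.0.16 (R 4.3.3; quasi-likelihood test, TMM, filterByExpr, Benjamini-Hochberg over all genes, two-sided, threshold 0.05). SE is the estimate divided by the root of F. CPM is TMM-normalised, with a prior count of 2 on log2 scales; 3 counts equal 0.0913 to 0.170 CPM, which covers counting error only. Alternatives were 2 scalings, 2 filters, DESeq2 1.42.0, limma-voom (limma 3.58.1), the exact test of edgeR, robust=TRUE, a replicate block, all transcript rows, a length and GC offset (lowess span 0.3, genes above mean log2 CPM 2), a term for the 4 shallowest libraries and leaving out each library; 2 marker covariates were added after seeing the data. Tests were tried on simulated data. The presynaptic genes, the further presynaptic list and the marker lists were chosen with earlier results of these data known. Values per library are given for genes with an unadjusted p under 0.05, for groups without overlap and for the extremes of each role.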

Additional observations from a re-analysis of the deposited data

Results flagged for a closer look

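In 5 of 66 gene and genotype groups, the highest or lowest of the 4 libraries stood apart from the other 3 by more than Dixon's critical ratio allows, where chance flags about 1 group in 20. The 66 groups share the same libraries and are not independent, and no excess over that rate was tested. Ercc1 delta/+ replicate 2 was the high library for Syt2 (166.6 CPM, the others 57.5 to 68.4 CPM, ratio 0.9), for Syn3 (79.6 CPM, the others 57.5 to 59.7 CPM, ratio 0.896) and for Cadps (423.3 CPM, the others 349.9 to 358.7 CPM, ratio 0.88). Wild type replicate 4 was the low library for Snap25 (1562 CPM, the others 2154 to 2222 CPM, ratio 0.897) and for Syt1 (826.4 CPM, the others 933.0 to 954.1 CPM, ratio 0.835).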

How the results depend on the processing

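Over 22 other settings, 18 of the 33 genes kept their sign and the count past an adjusted p of 0.05 was 0, except for 3 with the edgeR exact test, 4 with DESeq2 and 1 without Ercc1 delta/+ replicate 2 (range 0 to 1 over libraries left out). Over all genes the count was 7 with the quasi-likelihood test, 556 with the exact test, 1052 with DESeq2, 52 with limma-voom and 310 without Ercc1 delta/+ replicate 2. The number of positive genes ran from 25 to 33 with a library left out and was 20 with the forebrain covariate. The median log2 fold change ran from 0.07 to 0.18 with a library left out, and was 0.06 with the depth term and 0.16 with the choroid plexus covariate. The depth groups nearly coincide with genotype, since the 4 shallowest libraries are 3 mutant ones (replicates 1, 2 and 4) and 1 of wild type (replicate 2), so each depth group has 1 library of a genotype and no comparison within it was made. Sign changes were of uncalled values, and the cause was not tested. Upper-quartile scaling gave -0.00623 for Rims2 and -0.00326 for Snap25. Limma-voom gave 0.0103 for Unc13c. The replicate block gave 0.0114 for Unc13c. The length and GC offset gave -0.0366 for Rims2, -0.0298 for Cadps, -0.0312 for Sv2a and -0.0319 for Syt11. The depth term gave -0.106 for Snap25, -0.0137 for Vamp2, -0.0204 for Napb, -0.00950 for Rab3a and -0.000940 for Sh3gl2. The forebrain covariate gave -0.242 for Snap25, -0.293 for Vamp1, -0.0125 for Vamp2, -0.134 for Cplx1, -0.0857 for Cplx2, -0.0667 for Napb, -0.0251 for Nsf, -0.0243 for Cadps, -0.0513 for Syt2, -0.0102 for Syt11, -0.0666 for Rab3a and -0.0856 for Sh3gl2. The choroid plexus covariate gave -0.0535 for Rims2 and -0.0231 for Snap25. With a library left out, values ran from -0.0103 to 0.0740 for Vamp2, -0.126 to 0.0905 for Snap25, -0.326 to 0.253 for Vamp1, -0.0970 to 0.213 for Cplx1, -0.0215 to 0.0833 for Cadps, -0.0118 to 0.699 for Syt2, -0.0510 to 0.0610 for Rab3a, -0.0446 to 0.0845 for Sh3gl2, -0.0240 to 0.0330 for Rims2, -0.173 to 0.126 for Unc13c and -0.0117 to 0.0430 for Syt11. Deviations of same-numbered libraries correlated at -0.32, 0.19, -0.0016 and 0.31, and those of differently numbered ones between -0.64 and 0.61. With so wide a range, these values cannot show whether replicate numbers pair the samples. With the replicate block 33 of 33 genes were positive, 0 passed (7 at an unadjusted p under 0.05), the median was 0.11, and 0 genes passed over all genes.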
